A study of Mus musculus with 16 samples.

Results

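The comparison asked whether gastrocnemius muscle of HSALR mice and of FVB/N control mice answered AICAR alike. For each gene, the AICAR effect in FVB/N mice (AICAR minus vehicle) was subtracted from the AICAR effect in HSALR mice, so that a positive difference means a more positive effect in HSALR muscle. All 16 of the 16 libraries entered it, each from one mouse aged 3 months. They came from 3 FVB/N mice given vehicle, 3 FVB/N mice given AICAR, 5 HSALR mice given vehicle and 5 HSALR mice given AICAR. The vehicle groups are labelled CTRL, and AICAR was given at 500 mg/kg for 7 days. HSALR mice, labelled "HSA transgene", carry a human skeletal muscle actin transgene with a long CTG repeat on the FVB/N background, from 1 homozygous line, and express it in skeletal muscle. The transgene is human and has no row of its own in these mouse counts, and its reads could have been assigned to mouse Acta1, so the genotype labels could not be checked against it.

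AICAR enters cells and is phosphorylated to an AMP analogue that activates AMP-activated protein kinase (AMPK), the sensor of low cellular energy. In muscle, active AMPK is known to raise glucose uptake and oxidative metabolism, partly through the coactivator PGC-1alpha. In HSALR muscle, RNA with expanded CUG repeats binds muscleblind-like (MBNL) proteins in the nucleus, which alters splicing and causes myotonia, the delayed relaxation typical of myotonic dystrophy.

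The libraries held 64890014 to 81987726 counts, with a median of 73021286, and 15487 of 24454 genes passed the filter on low counts. The summed level of the 12 skeletal muscle fibre markers was 145000 to 212000 CPM (counts scaled to library size, with TMM factors) over all mice. The 11 epidermis markers summed to 2.52 to 313 CPM and were not evenly spread. Their sum was above 30 CPM in 4 of 5 HSALR vehicle mice and in 1 mouse of each FVB/N group, and was 2.64 to 3.35 CPM in the 5 HSALR AICAR mice. Their part in the results was not tested beyond a fit with their summed level as covariate. One HSALR AICAR mouse, S460, lay closer to the vehicle mice than its group. Of the 4121 genes with an AICAR effect in HSALR muscle, it lay within the range of the vehicle mice for 20.3%, against 6.94% to 12.0% for the other 4 AICAR mice. In whole muscle, fewer cells of a type and less RNA per cell cannot be told apart.

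The AICAR effect differed between the genotypes for 107 genes (0.691% of the genes tested) at an adjusted p under 0.05 (edgeR quasi-likelihood test). It was more positive in HSALR muscle for 32 genes (0.207%) and more negative for 75 (0.484%). The size of the difference ran from 0.28 to 5.98 on the log2 scale, with a median of 1.00, and 102 of the 107 genes code for protein. At an unadjusted p under 0.05, 2324 genes differed. By comparison, AICAR raised 2114 genes (13.7%) and lowered 2007 (13.0%) in HSALR muscle, and raised 1301 (8.40%) and lowered 738 (4.77%) in FVB/N muscle. These counts come from 5 mice per group in HSALR and 3 in FVB/N, and the median standard error of the effect was 0.104 and 0.135, respectively. The number of genes with a difference depended on single mice. It was 371 without S460, with all 107 genes among them, 15 without the FVB/N AICAR mouse S448, and 20 to 70 without S445, S446, S450, S447, S452, S453, S454, S455, S462 or S463. With upper-quartile scaling, 48 genes were more positive and 70 more negative in HSALR muscle, a more even split than with the main scaling. Without the FVB/N AICAR mouse S449 the split was even, with 41 more positive and 40 more negative genes, 53 of them shared with the 107. It was 8 and 12 without S445, 14 and 21 without S450 and 26 and 40 without S446, all FVB/N vehicle mice, and 17 and 26 without S462. It moved the other way, to 12 and 35 without S447 and to 3 and 12 without S448.

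For most genes no difference between the genotypes was detected. Of the 1238 genes with an AICAR effect called in both, 1213 moved in the same direction and 25 in opposite directions, and all 25 had a called difference. An effect was called in HSALR but not in FVB/N mice for 2883 genes, and the difference itself was called for 47 of them (1.63%). The reverse held for 801 genes, of which 27 (3.37%) had a called difference. The remaining 8 of the 107 genes moved the same way in both genotypes by unequal amounts. Genes called in one genotype had the larger median there, which choosing them by that call itself favours. Genes raised by AICAR in HSALR muscle had a median log2 change of 0.35 there and 0.25 in FVB/N muscle, and genes lowered there had medians of -0.55 and -0.22. Genes raised in FVB/N muscle had medians of 0.44 there and 0.29 in HSALR muscle, and genes lowered there had -0.55 and -0.26. Across all genes tested, 68.0% had effects of the same sign, with a Pearson correlation of 0.247 and a Spearman correlation of 0.468, as a description across genes within the same tissue. The 2 effects share no mice.

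**Figure D1:**
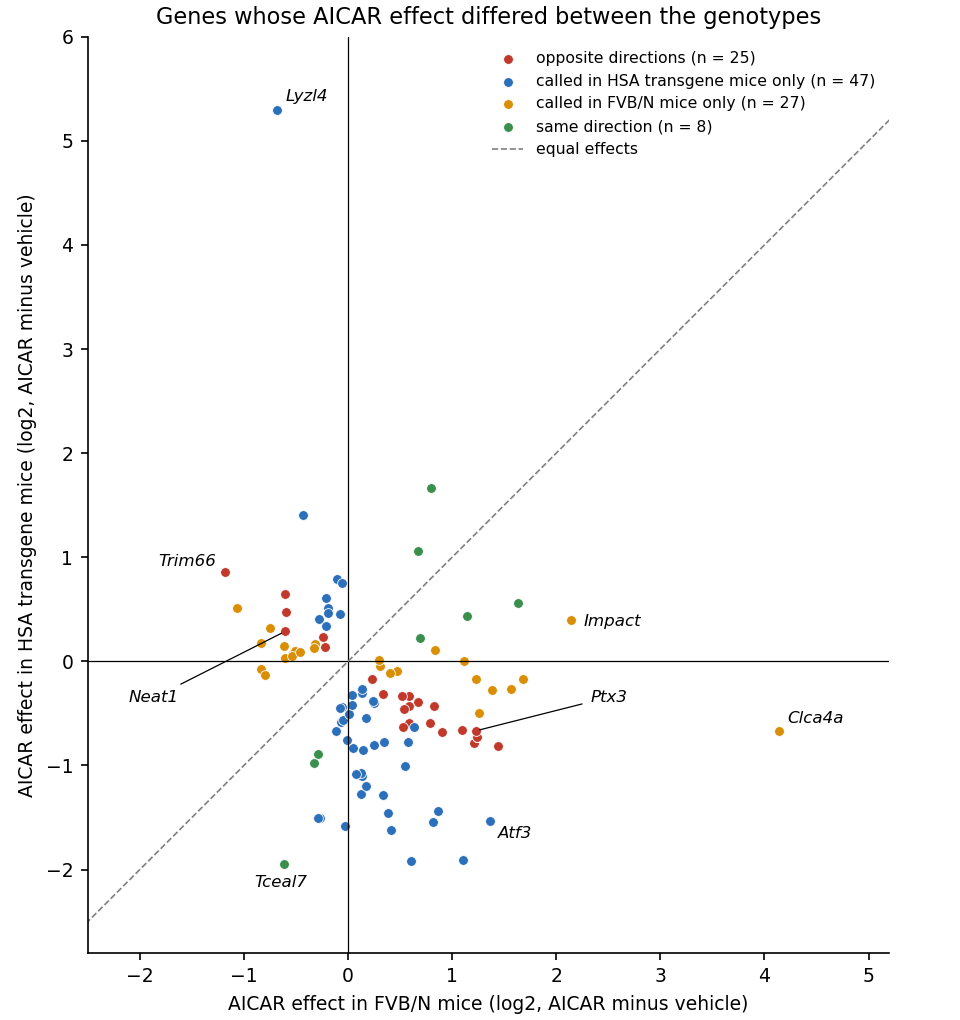
AICAR effect in HSALR mice (vertical axis, log2) against that in FVB/N mice (horizontal axis, log2) for the 107 genes with a called difference, 1 point per gene, coloured by the direction in which each effect was called. Many points lie in the lower right, where the level fell in HSALR and rose in FVB/N muscle, and the dashed line marks equal effects.

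Promoters of genes described below are shown to give the sequence context of Atf3, Tnfrsf12a, Hspb1 and Srxn1, which fell in HSALR muscle, and of Tceal7 and Ptx3, which were called in every setting. The choice was made after their values were seen. Each runs 5′ to 3′ on the gene's strand from 250 bases before to 50 bases after the start that RefSeq annotates on GRCm38.p6. Capitals mark matches, on either strand, to an AP-1 site (TGANTCA), a cyclic AMP response element, CRE (TGACGTCA), or the core of one (TGACGT), a heat shock element (GAANNTTC), an antioxidant response element (TGACNNNGC) or an ATF4 composite site (TGATGNAA). The windows are chr1:191183284-191183583 (minus strand) for Atf3, chr5:135887669-135887968 (plus) for Hspb1, chr2:152105274-152105573 (plus) for Srxn1, chrX:136223791-136224090 (plus) for Tceal7, chr3:66219637-66219936 (plus) for Ptx3 and chr17:23677400-23677699 (minus) for Tnfrsf12a. No match was found in the last 2.
Atf3: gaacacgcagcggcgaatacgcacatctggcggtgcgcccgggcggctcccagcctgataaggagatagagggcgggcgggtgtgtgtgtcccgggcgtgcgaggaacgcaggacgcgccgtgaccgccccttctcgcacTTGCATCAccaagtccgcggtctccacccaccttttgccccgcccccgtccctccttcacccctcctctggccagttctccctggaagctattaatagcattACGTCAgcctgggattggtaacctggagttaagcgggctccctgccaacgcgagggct
Hspb1: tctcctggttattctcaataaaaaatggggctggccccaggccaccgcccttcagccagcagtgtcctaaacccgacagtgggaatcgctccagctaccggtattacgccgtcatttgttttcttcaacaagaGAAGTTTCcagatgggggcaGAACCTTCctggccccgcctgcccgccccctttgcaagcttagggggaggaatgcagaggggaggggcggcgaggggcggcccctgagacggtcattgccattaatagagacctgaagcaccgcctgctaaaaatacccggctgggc
Srxn1: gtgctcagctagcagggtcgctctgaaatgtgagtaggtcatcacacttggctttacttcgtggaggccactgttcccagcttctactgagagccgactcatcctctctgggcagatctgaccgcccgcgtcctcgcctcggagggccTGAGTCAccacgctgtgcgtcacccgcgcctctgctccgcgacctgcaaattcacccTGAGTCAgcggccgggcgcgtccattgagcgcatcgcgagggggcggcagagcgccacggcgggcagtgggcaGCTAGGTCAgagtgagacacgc
Tceal7: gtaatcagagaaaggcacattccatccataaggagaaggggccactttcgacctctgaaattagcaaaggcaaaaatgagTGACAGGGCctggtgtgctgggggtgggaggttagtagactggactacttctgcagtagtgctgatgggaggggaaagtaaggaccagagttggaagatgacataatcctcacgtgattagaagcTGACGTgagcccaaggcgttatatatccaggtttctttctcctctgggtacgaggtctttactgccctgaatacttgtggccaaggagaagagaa
Ptx3: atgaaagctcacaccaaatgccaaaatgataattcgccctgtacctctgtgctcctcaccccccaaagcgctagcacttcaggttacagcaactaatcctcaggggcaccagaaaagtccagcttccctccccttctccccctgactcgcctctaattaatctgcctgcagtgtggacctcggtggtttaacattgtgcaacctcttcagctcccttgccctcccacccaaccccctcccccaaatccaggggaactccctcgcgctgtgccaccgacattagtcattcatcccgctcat
Tnfrsf12a: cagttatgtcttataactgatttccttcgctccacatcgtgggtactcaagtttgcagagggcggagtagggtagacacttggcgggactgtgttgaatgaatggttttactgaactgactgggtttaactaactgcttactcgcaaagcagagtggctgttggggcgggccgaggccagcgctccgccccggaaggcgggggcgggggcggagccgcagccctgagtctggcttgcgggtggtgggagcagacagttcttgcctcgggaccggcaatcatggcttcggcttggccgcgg

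Atf3 held a CRE core from 8 to 3 bases before the start and an ATF4 composite site further upstream. Hspb1 held 2 heat shock elements within 117 bases before the start, and Srxn1 held 2 AP-1 sites and, after the start, an antioxidant response element. Tceal7 held a CRE core and an antioxidant response element. Over the 102 searched windows of 81 genes with a called difference, an AP-1 site was found in 4.90%, a CRE in 2.94%, a CRE core in 7.84%, a heat shock element in 4.90%, an antioxidant response element in 15.7% and an ATF4 composite site in 1.96%. Over the 15344 searched windows of tested genes the shares were 5.66%, 2.72%, 10.4%, 5.86%, 14.1% and 2.36%. Both sets leave out the promoters of a whole chromosome, so they do not hold every gene. Every CRE also holds a CRE core. The promoters are given as description, and no binding was measured.

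The 25 genes with opposite effects comprised 19 that fell in HSALR and rose in FVB/N muscle and 6 that did the reverse. Ptx3 (chr3:66219887-66225806) encodes pentraxin 3, a secreted pattern recognition protein of innate immunity. Its level in FVB/N mice was 7.60, 8.63 and 5.03 CPM after vehicle and 12.8, 17.2 and 19.7 CPM after AICAR. In HSALR mice it was 20.2, 26.1, 20.9, 24.3 and 24.8 CPM after vehicle and 14.1, 16.5, 16.8, 13.3 and 12.6 CPM after AICAR. Every AICAR mouse lay above the vehicle mice in FVB/N and below them in HSALR. Such separation was a condition of the rule by which most genes described here were chosen, so it is a description only, here and below. Over all genes tested it was seen for 17.6% in HSALR and 33.1% in FVB/N mice, where 3 mice face 3. The log2 change was 1.23 ± 0.19 (standard error of the fit, here and below) in FVB/N and -0.67 ± 0.14 in HSALR muscle. The difference of -1.89 ± 0.24 (adjusted p = 0.00552) held without any one of the 16 mice.

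Neat1 (chr19:5824708-5845480) is a long noncoding RNA that builds nuclear paraspeckles. FVB/N mice had 635.7, 676.4 and 681.1 CPM after vehicle and 465.8, 463.4 and 382.4 CPM after AICAR. HSALR mice had 383.3, 448.1, 427.1, 458.6 and 499.2 CPM after vehicle and 550.4, 522.2, 523.8, 582.2 and 527.5 CPM after AICAR. The groups did not overlap in either genotype, and the level fell by 0.60 ± 0.09 on the log2 scale in FVB/N and rose by 0.29 ± 0.07 in HSALR muscle. Its difference of 0.89 ± 0.12 (adjusted p = 0.00552) also held without any one mouse, while its rise in HSALR muscle missed the threshold with scaling by library size alone (adjusted p = 0.0573).

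Panx1 is a membrane channel that releases ATP. Its level was 9.86, 10.8 and 14.0 CPM after vehicle and 15.4, 16.1 and 20.4 CPM after AICAR in FVB/N mice. The HSALR mice had 33.0, 29.9, 30.1, 31.1 and 29.7 CPM after vehicle, against 22.3, 16.1, 23.9, 20.5 and 19.3 CPM after AICAR. No AICAR mouse overlapped its vehicle group, and the difference was -1.17 ± 0.18 (adjusted p = 0.0141, and at most 0.0496 without any one mouse). Its rise in FVB/N muscle was less secure, and was lost without S445, S446 or S449 (adjusted p up to 0.0843). Srxn1 encodes sulfiredoxin, which restores oxidized peroxiredoxins. In FVB/N mice it had 31.4, 36.8 and 32.0 CPM after vehicle and 34.98, 51.5 and 57.7 CPM after AICAR, with 1 AICAR mouse inside the vehicle range. In HSALR mice it had 63.6, 78.7, 76.3, 67.0 and 67.6 CPM after vehicle and 45.7, 41.7, 49.8, 42.5 and 48.9 CPM after AICAR, without overlap. The difference was -1.15 ± 0.18 (adjusted p = 0.0141), and it was lost without S448 (adjusted p = 0.0544). The FVB/N rise was lost without S445, S450, S448 or S449 (adjusted p up to 0.124).

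Mdga1, a membrane-anchored adhesion protein, differed by -0.99 ± 0.18 (adjusted p = 0.0251), with log2 changes of 0.53 in FVB/N and -0.46 in HSALR muscle. The call was lost without S450 or S454 (adjusted p at most 0.066), and the FVB/N rise without S446, S450 or S449 (up to 0.116). Gpr176, an orphan G protein-coupled receptor expressed below 1.1 CPM, differed by -1.58 ± 0.30 (adjusted p = 0.029), and the call was lost without S445, S450, S447, S448, S452, S454, S455 or S462 (adjusted p up to 0.0909). Its FVB/N rise was lost without S445, S450, S448 or S449 (adjusted p up to 0.0826). Itgb1 encodes the beta1 integrin chain, through which fibres bind the matrix, and showed a small difference of -0.40 ± 0.08 (adjusted p = 0.0336). The Itgb1 call was lost without any one mouse other than S458, S459 and S460 (adjusted p up to 0.107). Its FVB/N rise was lost without S445, S446, S448 or S449 and with 2 other scalings (adjusted p up to 0.132), and its HSALR fall with the epidermis covariate (0.0984). In the other direction, Trim66, which encodes a chromatin reader, fell by 1.18 ± 0.29 on the log2 scale in FVB/N and rose by 0.85 ± 0.22 in HSALR muscle. Its level was 0.69 to 1.06 CPM after vehicle and 0.30 to 0.50 CPM after AICAR in FVB/N mice, and 0.49 to 0.83 and 0.91 to 1.50 CPM in HSALR mice. The Trim66 difference of 2.04 ± 0.37 (adjusted p = 0.0251) was lost without S445, S450, S447, S448 or S454 (adjusted p at most 0.066), and its FVB/N fall without S450, S447 or S448 (up to 0.0675). The zinc finger gene Zfp687 (0.47 ± 0.09) and BC029722 (0.35 ± 0.07) had smaller differences (adjusted p = 0.0335 and 0.0368). The Zfp687 call was lost without any one mouse other than S450, S447, S458, S459, S460 and S463 (adjusted p up to 0.112), and that of BC029722 without any one other than S451, S458, S459 and S460 (adjusted p up to 0.116). BC029722 also lost its call with scaling by library size alone and with no filter on low counts (adjusted p = 0.148 and 0.0547). Their opposite directions were not secure in either genotype. The Zfp687 fall in FVB/N muscle was lost in 17 of 27 alternatives (adjusted p up to 0.164), among them each mouse left out other than S450, S447, S458, S459 and S460, and its HSALR rise was lost with scaling by library size alone and with the epidermis covariate (adjusted p = 0.0572 and 0.103). The BC029722 rise in HSALR muscle was lost in 12 of 27 (up to 0.518), among them without S452, S453, S458, S454, S455 or S463, and its FVB/N fall was lost without S445, S450, S447 or S449 (up to 0.0812). Of the exon bases of BC029722, 39.4% overlap Mmp24 on the other strand, and the use of strand in counting is not stated. The predicted genes Gm11757, Gm11758 and Gm13871 of this class, named after their values were seen, had identical values (difference -1.97, adjusted p = 0.0317) and may share reads.

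**Figure D2:**
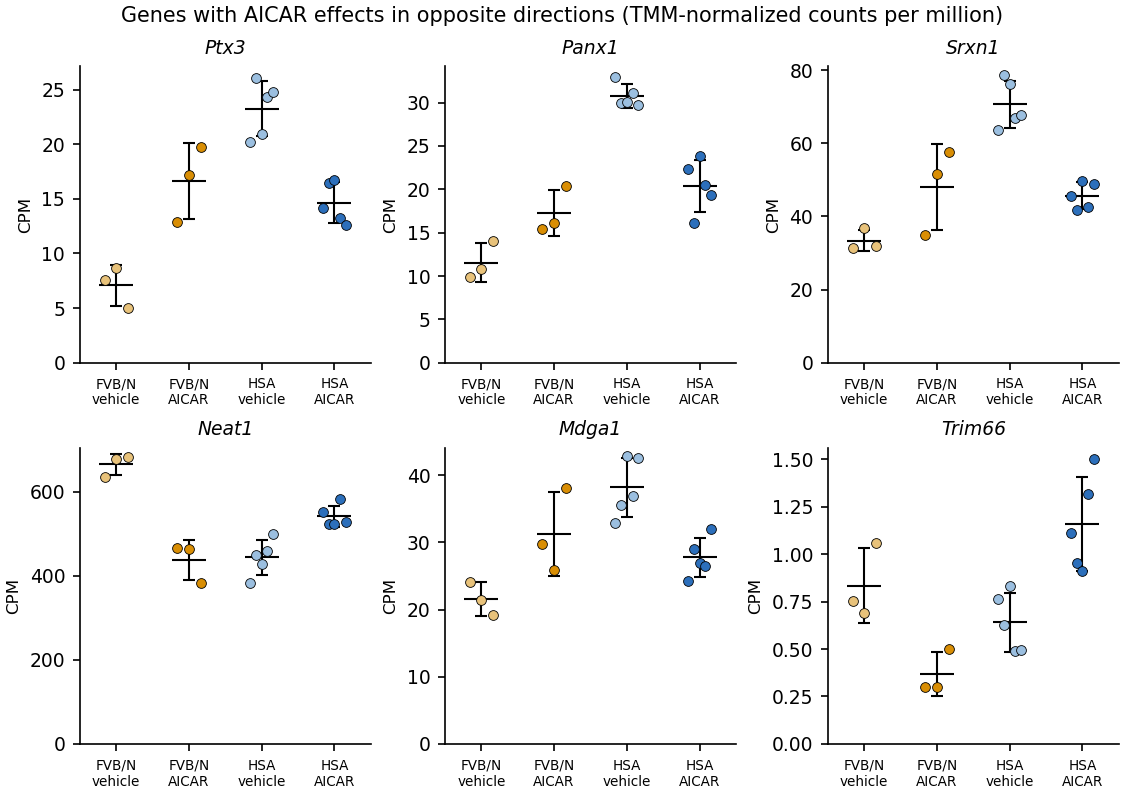
CPM of 6 genes with called AICAR effects in opposite directions, 1 point per mouse, with the group mean and its SD as bars (n = 3 per FVB/N group and 5 per HSALR group) and an axis from 0 for each gene. For Ptx3 the 3 FVB/N AICAR mice lie at 12.8 to 19.7 CPM, above their vehicle group, and the 5 HSALR AICAR mice at 12.6 to 16.8 CPM, below theirs.

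Among the 47 genes with an effect called in HSALR muscle only, 37 had a more negative and 10 a more positive effect there. Atf3 encodes a transcription factor of the stress response that binds CRE sequences. It had 7.63, 22.3 and 11.2 CPM after vehicle and 19.2, 34.1 and 52.6 CPM after AICAR in FVB/N mice. HSALR mice had 208, 255, 146, 103 and 108 CPM after vehicle and 61.4, 41.3, 82.4, 46.5 and 50.8 CPM after AICAR. The HSALR groups did not overlap, while in FVB/N mice 1 AICAR mouse lay inside the vehicle range. AICAR lowered Atf3 by 1.54 ± 0.34 on the log2 scale in HSALR muscle, and the FVB/N change of 1.36 ± 0.44 missed the threshold (adjusted p = 0.0541). This rise was called in 7 of 27 alternatives (adjusted p down to 0.0188), among them without S446, S447, S452 or S460, which would place Atf3 among the genes with opposite effects. The difference was -2.90 ± 0.56 (adjusted p = 0.029). It was lost without S445, S450, S448, S449, S452, S454, S455, S462 or S463, with adjusted p up to 0.0909.

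Tnfrsf12a encodes the receptor of the cytokine TWEAK, known to rise in stressed and denervated muscle. The FVB/N mice had 6.77, 18.6 and 11.0 CPM after vehicle and 18.9, 17.8 and 27.6 CPM after AICAR. In HSALR mice the vehicle values were 108, 126, 101, 86.5 and 63.8 CPM and the AICAR values 39.2, 27.4, 48.0, 26.2 and 26.1 CPM. The HSALR groups were fully separate and the FVB/N groups overlapped. The difference was -2.36 ± 0.42 (adjusted p = 0.0251), lost without S445, S450 or S448 (adjusted p at most 0.0702). Without S446 the FVB/N rise was called as well (adjusted p = 0.0289). Hspb1, which encodes a small heat shock protein, had 41.4, 58.6 and 67.7 CPM after vehicle and 45.2, 45.3 and 48.5 CPM after AICAR in FVB/N mice. It had 247, 257, 216, 217 and 165 CPM after vehicle and 82.1, 68.0, 101, 74.8 and 62.5 CPM after AICAR in HSALR mice. The level fell in every HSALR AICAR mouse to below the lowest vehicle mouse, by 1.51 ± 0.15 on the log2 scale, and the FVB/N change was -0.27 ± 0.19 (adjusted p = 0.376). The Hspb1 difference of -1.23 ± 0.24 (adjusted p = 0.030) was lost without any one mouse other than S450, S451, S453, S458, S459 and S460 (adjusted p up to 0.0889).

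Camk1d, a calcium/calmodulin-dependent protein kinase, had 8.27, 8.52 and 6.54 CPM after vehicle and 9.26, 9.08 and 7.89 CPM after AICAR in FVB/N mice. HSALR mice had 39.2, 41.2, 46.9, 44.1 and 50.4 CPM after vehicle and 17.6, 16.2, 28.2, 17.4 and 17.2 CPM after AICAR. The value of 28.2 CPM belongs to S460, and even so all AICAR mice lay below all HSALR vehicle mice. The difference of -1.37 ± 0.23 (adjusted p = 0.0183) was lost without S448 (adjusted p = 0.0553). Azin1, an inhibitor of antizyme that favours polyamine synthesis, had 61.7 to 79.9 CPM after vehicle and 69.6 to 83.1 CPM after AICAR in FVB/N mice. In HSALR mice it fell from 107 to 162 CPM to 55.1 to 93.0 CPM, a log2 change of -1.08 ± 0.14. Its difference was -1.20 ± 0.23 (adjusted p = 0.029), and the call was lost without any one mouse other than S446, S451, S453, S458, S459 and S460 (adjusted p up to 0.0902).

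Further members of this class fell in HSALR muscle from levels above those of FVB/N mice. Epgn, a ligand of the EGF receptor, differed by -2.52 ± 0.54 (adjusted p = 0.0444), and Nmnat2, an enzyme of NAD synthesis, by -2.31 ± 0.41 (adjusted p = 0.0251). Both calls were lost with limma and voom (adjusted p = 0.225 and 0.0533). The Epgn call was also lost without any one mouse other than S451, S458, S459 and S460 (adjusted p up to 0.128), and that of Nmnat2 without S445, S450, S447, S448 or S454 (adjusted p up to 0.0702). Mybph, a myosin-binding protein raised by denervation, differed by -1.26 ± 0.27 (adjusted p = 0.0462), and this call was lost without any one mouse other than S446 and S460 (adjusted p up to 0.108), with limma and voom (0.0536) and with robust dispersion estimates (0.0529). Its FVB/N rise of 0.63 was called in 6 of 27 alternatives, among them without S446, S447 or S448 (adjusted p down to 0.0216). Of the exon bases of Mybph, 49.9% overlap Adora1 on the other strand, whose own difference was 0.30 (adjusted p = 0.81). Psmd5, a chaperone of proteasome assembly (-0.38 ± 0.07), and Nhp2, a protein of the particles that modify ribosomal RNA (-0.40 ± 0.07), had small differences (adjusted p = 0.0298 and 0.0277). The Psmd5 call was lost without any one mouse other than S450, S453, S458, S459 and S460 (adjusted p up to 0.0909), and that of Nhp2 without S445, S450, S448, S449, S454, S455 or S462 (adjusted p up to 0.0872). Mustn1, Xirp1 and Klhl40 of this class stand outside the rule for named genes and were picked after their values were seen. Mustn1, a gene of muscle regeneration, fell by 1.58 on the log2 scale in HSALR muscle against -0.03 in FVB/N muscle (difference -1.56 ± 0.22, adjusted p = 0.00752). Xirp1, an actin-binding protein of intercalated discs and damaged fibres, differed by -1.84 ± 0.40 (adjusted p = 0.0496), and Klhl40, which stabilizes thin-filament proteins, by -0.88 ± 0.18 (adjusted p = 0.0339). Whether the calls of Mustn1, Xirp1 and Klhl40 held with each mouse left out is not given here.

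The 10 genes that were more positive in HSALR muscle included Inmt, an indolethylamine N-methyltransferase. It had 17.1, 14.3 and 32.0 CPM after vehicle and 18.7, 14.2 and 14.2 CPM after AICAR in FVB/N mice, with overlap. HSALR mice had 8.71, 7.19, 8.76, 9.69 and 7.94 CPM after vehicle and 21.8, 21.9, 17.6, 27.9 and 23.1 CPM after AICAR, with none. The difference was 1.84 ± 0.30 (adjusted p = 0.0183), lost without S448 (adjusted p = 0.0553). Vldlr, a receptor for triglyceride-rich lipoproteins, had 152, 139 and 197 CPM after vehicle and 143, 155 and 154 CPM after AICAR in FVB/N mice. It rose in HSALR mice from 106 to 130 CPM to 164 to 232 CPM, a log2 change of 0.79 ± 0.11. Its difference of 0.90 ± 0.17 (adjusted p = 0.029) was lost without S445, S450, S447, S448, S449, S452, S454, S455 or S463 (adjusted p up to 0.0778). Vamp1, a vesicle fusion protein of nerve terminals, rose in HSALR muscle by 0.52 ± 0.07 and differed by 0.71 ± 0.12 (adjusted p = 0.0183), and Arfgap2, which acts on the coat of Golgi vesicles, by 0.66 ± 0.12 (adjusted p = 0.0251). The call for Vamp1 was lost without S448 (adjusted p = 0.0553), and that for Arfgap2 without S445, S450, S447, S448 or S454 (adjusted p at most 0.0702). Of the exon bases of Arfgap2, 33.4% overlap 1110051M20Rik on the other strand, whose difference was -0.10 (adjusted p = 0.725). The largest fitted difference of the 107 genes, 5.98 ± 0.79 for Lyzl4 (adjusted p = 0.00551), belonged to a gene with a mean of 18.6 counts per library and is named here because of that value. Whether the Lyzl4 call held with each mouse left out is not given here.

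**Figure D3:**
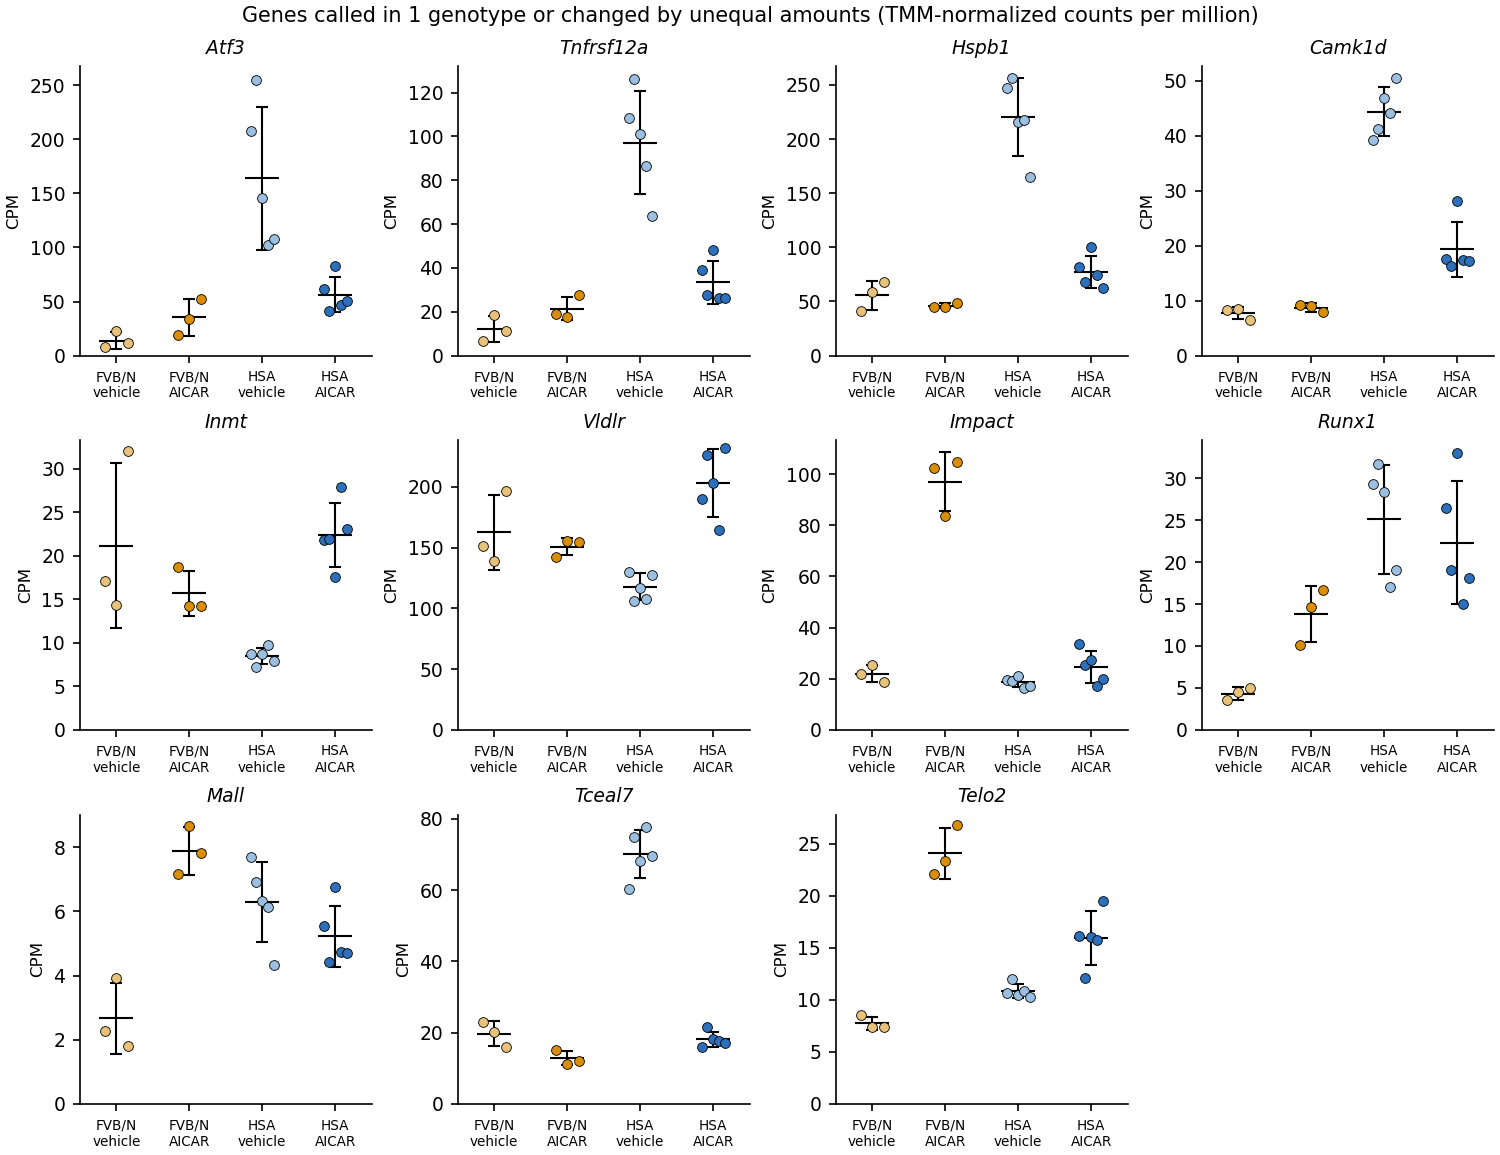
CPM of 11 genes whose AICAR effect was called in 1 genotype or was unequal in size, 1 point per mouse, with group mean and SD bars (n = 3 per FVB/N group and 5 per HSALR group) and an axis from 0 for each gene. Atf3, Tnfrsf12a, Hspb1 and Camk1d are highest in the HSALR vehicle mice, whereas Impact is highest in the FVB/N AICAR mice, at 83.7 to 105 CPM.

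Of the 27 genes with an effect called in FVB/N muscle only, 13 had a more negative and 14 a more positive difference, that is, a rise or a fall called in FVB/N mice that was not called in HSALR mice. Impact encodes an inhibitor of GCN2, the kinase that starts the integrated stress response when amino acids are scarce. It had 21.7, 25.3 and 18.9 CPM after vehicle and 103, 83.7 and 105 CPM after AICAR in FVB/N mice. In HSALR mice the values were 19.5, 18.9, 21.1, 16.5 and 17.2 CPM after vehicle and 33.4, 25.5, 27.3, 17.2 and 19.8 CPM after AICAR. All 3 FVB/N AICAR mice lay far above every other mouse, and 2 HSALR AICAR mice lay inside the vehicle range. The log2 change was 2.14 ± 0.20 in FVB/N muscle and 0.40 ± 0.15 in HSALR muscle (adjusted p = 0.0573). The HSALR rise was called in 4 of 27 alternatives, among them without S462 or S463 (adjusted p down to 0.0143). The difference of -1.74 ± 0.24 (adjusted p = 0.00624) held without any one mouse, with an adjusted p of at most 0.0246.

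Runx1, a transcription factor that rises in denervated muscle, had 3.51, 4.45 and 4.99 CPM after vehicle and 10.1, 14.6 and 16.7 CPM after AICAR in FVB/N mice. It had 29.3, 31.7, 28.3, 17.1 and 19.1 CPM after vehicle and 26.4, 19.0, 33.0, 15.0 and 18.1 CPM after AICAR in HSALR mice, where the groups overlapped. All HSALR mice but one lay above the highest FVB/N mouse. The Runx1 difference was -1.85 ± 0.38 (adjusted p = 0.0355), and the call was lost with limma and voom (adjusted p = 0.0808) and without any one mouse other than S447, S458, S459 and S460 (adjusted p up to 0.116). Mall, a membrane protein of lipid rafts, had 2.26, 3.92 and 1.82 CPM after vehicle and 7.15, 8.66 and 7.82 CPM after AICAR in FVB/N mice, and 4.35 to 7.71 and 4.42 to 6.76 CPM in HSALR mice. It differed by -1.83 ± 0.31 (adjusted p = 0.0239), lost without S445 or S448 (adjusted p at most 0.0712). Hbegf, a heparin-binding growth factor of the EGF family, rose in FVB/N muscle by 1.26 ± 0.27 and differed by -1.75 ± 0.34 (adjusted p = 0.029), which was lost without S445, S446, S450, S448, S449, S452, S454, S455 or S463 (adjusted p up to 0.0909). Its fall in HSALR muscle was called in 3 of 27 alternatives, with limma and voom, with scaling by library size alone and without S460 (adjusted p = 0.0393, 0.0443 and 0.00167). Impdh1, an enzyme of guanine nucleotide synthesis, rose in FVB/N mice from 12.2 to 13.2 CPM to 17.3 to 18.5 CPM. It was at 17.7 to 21.5 and 17.01 to 20.2 CPM in HSALR mice, with a difference of -0.56 ± 0.10 (adjusted p = 0.0268), lost without S445, S450 or S448 (adjusted p at most 0.0872). Clca4a, of the chloride channel accessory family, was near the detection limit in FVB/N vehicle mice, at 0.085, 0.026 and 0 CPM, and at 0.90, 0.92 and 0.17 CPM after AICAR. Its fitted difference of -4.81 ± 0.95 (adjusted p = 0.032) rests on these few counts, its FVB/N rise was lost with limma and voom (adjusted p = 0.0841), and the called difference was lost with limma and voom (adjusted p = 0.169) and without any one mouse other than S449, S451, S458, S459 and S460 (adjusted p up to 0.089).

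Genes that fell with AICAR in FVB/N muscle only included Abcb1a, a drug efflux pump of capillary endothelium. It had 18.6, 21.0 and 26.5 CPM after vehicle and 12.7, 11.7 and 12.7 CPM after AICAR in FVB/N mice. In HSALR mice it had 12.8, 9.50, 10.6, 13.5 and 12.8 CPM after vehicle and 14.7, 12.7, 13.3, 13.7 and 12.5 CPM after AICAR, so that FVB/N vehicle mice alone were high. The difference was 1.01 ± 0.17 (adjusted p = 0.0218), lost without S448 (adjusted p = 0.0553). The summed level of the 13 endothelial and mural cell markers was 802 to 898 CPM after vehicle and 762 to 840 CPM after AICAR in FVB/N mice, and 593 to 682 and 610 to 672 CPM in HSALR mice, and its part in this result was not tested. Zc3h6, a CCCH zinc finger gene, differed by 1.59 ± 0.33 (adjusted p = 0.0381), Cysltr1, a leukotriene receptor, by 1.07 ± 0.23 (adjusted p = 0.0444), and Airn, an imprinted noncoding RNA transcribed antisense to Igf2r, by 0.77 ± 0.15 (adjusted p = 0.0336). The Zc3h6 call was lost without any one mouse other than S446, S453, S458, S459 and S460 (adjusted p up to 0.110). Its HSALR rise was called in 5 of 27 alternatives, among them without S459 or S460 (adjusted p down to 0.00648), and its FVB/N fall was lost without S448 (0.0511). The Cysltr1 call was lost without any one other than S453 and S460 (adjusted p up to 0.108), and with limma and voom, library size scaling or no filter (adjusted p = 0.0533, 0.0569 and 0.0548). The Cysltr1 fall in FVB/N muscle was lost without S446 or S449 (adjusted p = 0.0514 and 0.0531), and its HSALR rise was called without S453 (0.0484). The Airn call was lost without any one other than S446, S451, S452, S458, S459 and S460 (adjusted p up to 0.0948).

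The 8 genes that moved the same way by unequal amounts were led by Tceal7 (chrX:136224041-136226100), a small nuclear protein of the elongation factor A-like family. It had 23.0, 20.3 and 15.9 CPM after vehicle and 15.1, 11.3 and 12.1 CPM after AICAR in FVB/N mice. HSALR mice had 60.2, 74.9, 68.0, 77.8 and 69.5 CPM after vehicle and 16.1, 21.5, 18.2, 17.6 and 17.2 CPM after AICAR. The HSALR AICAR mice thus lay at the level of the FVB/N vehicle mice, and all groups were separate within a genotype. The log2 change was -1.95 ± 0.11 in HSALR and -0.62 ± 0.14 in FVB/N muscle, and the difference of -1.33 ± 0.18 (adjusted p = 0.00582) held without any one mouse. The FVB/N fall was lost without S445 (adjusted p = 0.0564). Of the exon bases of Tceal7, 18.3% overlap Bex1 on the other strand, whose difference was -0.72 (adjusted p = 0.135). Telo2, which stabilizes kinases of the mTOR and ATM family, had 8.51, 7.38 and 7.43 CPM after vehicle and 22.1, 23.4 and 26.8 CPM after AICAR in FVB/N mice. In HSALR mice it had 10.6, 12.0, 10.5, 10.8 and 10.2 CPM after vehicle and 16.2, 12.2, 16.1, 15.8 and 19.6 CPM after AICAR. The rise was 1.63 ± 0.13 in FVB/N and 0.56 ± 0.10 in HSALR muscle, and the difference of -1.07 ± 0.16 (adjusted p = 0.0141) held without any one mouse.

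Jag2, a ligand of Notch receptors, rose in FVB/N mice by 1.14 ± 0.12 and in HSALR mice by 0.44 ± 0.09, the latter lost with the epidermis covariate (adjusted p = 0.0502). Its difference of -0.70 ± 0.15 (adjusted p = 0.0433) was lost with limma and voom (adjusted p = 0.0502) and without any one mouse other than S447, S458, S459 and S460 (adjusted p up to 0.106).

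With the epidermis level as covariate, 15 of the 37 named genes with a called difference lost their call, at adjusted p between 0.0501 and 0.0935. They were Zfp687, BC029722, Itgb1, Epgn, Nmnat2, Psmd5, Nhp2, Hspb1, Runx1, Hbegf, Clca4a, Zc3h6, Cysltr1, Airn and Jag2. The sizes of their differences stayed close to those without the covariate, changing by between -8.69% for Zfp687 and 12.2% for Jag2. Neat1, Ptx3, Tceal7 and Impact kept theirs in all 27 alternatives, with adjusted p of at most 0.0246.

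The genotype differences after vehicle and after AICAR are given side by side, since they use the same mice as the difference between the effects and are no separate evidence. Genotype differed after vehicle for 26.9% of all genes tested and after AICAR for 21.8%. Of the 75 genes with a more negative AICAR effect in HSALR muscle, 68 were higher there than in FVB/N muscle after vehicle and 26 were higher after AICAR, with 13 lower and 36 not called. Their median genotype difference was 1.05 on the log2 scale after vehicle and 0.08 after AICAR. Of the 32 genes with a more positive effect, 24 were lower in HSALR muscle after vehicle and 3 after AICAR, when 17 were higher. For Ptx3, the HSALR muscle was higher by 1.71 ± 0.18 after vehicle, and the difference was -0.18 ± 0.16 after AICAR (adjusted p = 0.46). Impact showed the other order, with -0.24 ± 0.17 after vehicle (adjusted p = 0.34) and -1.98 ± 0.17 after AICAR.

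**Figure D4:**
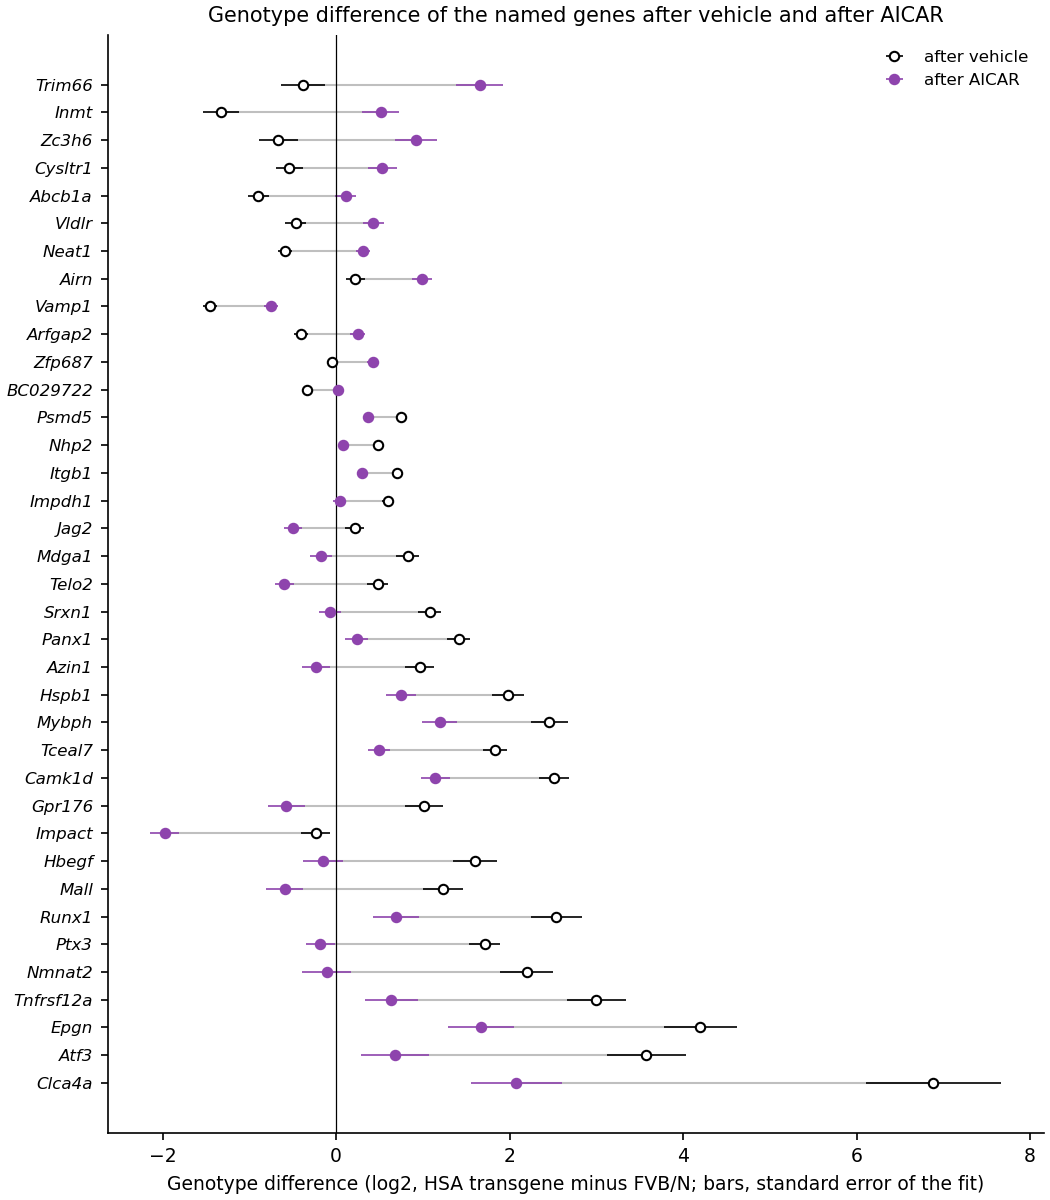
Genotype difference (HSALR minus FVB/N, log2) of the 37 named genes with a called difference between the AICAR effects, after vehicle (open points) and after AICAR (filled points), with the standard error of the fit as bars. For most genes in the lower part, from Psmd5 to Clca4a, the filled point lies left of a positive open point, and for Impact it lies at -1.98.

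The lists of respiration and glucose use had a larger share of genes called higher after AICAR than all genes tested, of which 13.7% rose in HSALR and 8.40% in FVB/N muscle, and no member had a called difference. Of 36 complex I genes, 28 rose in HSALR and 11 in FVB/N muscle and none fell, with median log2 changes of 0.23 and 0.20, beside -0.02 and -0.01 over all genes tested. Of 38 genes of complexes III to V, 32 and 15 rose and none fell, with medians of 0.28 and 0.22. The TCA cycle list of 34 genes had 19 and 12 risers, 1 faller in each genotype and medians of 0.23 and 0.19, and the 40 genes of glucose uptake, glycolysis and glycogen had 18 and 14 risers, 3 and 1 fallers and medians of 0.18 and 0.16. The FVB/N counts of the first 3 lists depended on the scaling and on single mice. They fell to 3 for complex I, 7 for complexes III to V and 6 for the TCA cycle with scaling by library size alone, and to 4, 6 and 6 without S446. Upper-quartile scaling (3, 8 and 6) and leaving out S448 (4, 7 and 6) gave similar counts, as did leaving out S447 (5 for complex I and 9 for complexes III to V) and S450 (6 for complex I). The HSALR count of complex I was 15 with scaling by library size alone. That scaling also took the HSALR medians of the glucose and TCA lists to 0.10 and 0.15, upper-quartile scaling took the FVB/N glucose median to 0.11, and leaving out S446 took the FVB/N TCA median to 0.12. Fatty acid uptake and oxidation did not follow, with 4 of 41 genes higher in HSALR (9.76%) and 2 in FVB/N muscle (4.88%), both below the share of all genes. Of the 22 PGC-1 coactivators and partner factors, 8 and 7 rose, and 0 and 1 fell. The HSALR medians of these 2 lists, 0.07 and 0.03, turned to -0.005 and -0.05 with scaling by library size alone, and that of the PGC-1 list to -0.02 without S460. With scaling by library size alone the HSALR risers of the fatty acid and PGC-1 lists were 2 and 3, with the epidermis covariate those of the PGC-1 list were 2, and its FVB/N risers were 3 or 4 without S445, S450, S448 or S449. Of 14 AMPK subunits and upstream kinases, 6 rose and 3 fell in HSALR and 1 rose in FVB/N muscle, and the HSALR risers were 3 with scaling by library size alone or with the epidermis covariate. Ppargc1a, which encodes PGC-1alpha, had 52.6, 52.4 and 56.7 CPM after vehicle and 118, 171 and 223 CPM after AICAR in FVB/N mice. In HSALR mice it had 51.9, 86.0, 57.3, 40.6 and 43.7 CPM after vehicle and 112, 110, 71.0, 80.6 and 92.4 CPM after AICAR, with S460 lowest. The rise was 1.66 ± 0.27 in FVB/N and 0.74 ± 0.20 in HSALR muscle, where it missed the threshold with the epidermis covariate (adjusted p = 0.0515), and the difference of -0.92 ± 0.33 was not called (adjusted p = 0.206). Hk2, the muscle hexokinase, rose in both genotypes, by 1.60 ± 0.17 and 1.24 ± 0.13, with a difference of -0.36 ± 0.21 (adjusted p = 0.443). Slc2a4, the glucose transporter GLUT4, differed by 0.12 ± 0.11 (adjusted p = 0.655), and Prkaa2, the catalytic alpha2 subunit of AMPK, by 0.12 ± 0.13 (adjusted p = 0.709). Pdk4, an inhibitor of pyruvate dehydrogenase, ranged from 118 to 627 CPM over all mice, with a difference of 0.48 ± 0.61 (adjusted p = 0.76).

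The heat shock chaperones, which refold damaged proteins, had 19 of 35 members lower and 2 higher after AICAR in HSALR muscle, against 3 lower and 2 higher in FVB/N muscle. The share of lower members was 54.3% in HSALR, beside 13.0% of all genes, and 8.57% in FVB/N muscle, near the 4.77% of all genes. Members called higher made up 5.71% in each genotype, beside 13.7% and 8.40% of all genes. The 35 chaperones summed to 9740 to 10400 CPM after vehicle and 7220 to 8590 CPM after AICAR in HSALR mice. In FVB/N mice they summed to 6750 to 7790 and 6690 to 7300 CPM. Their medians were -0.28 and 0.03, and the FVB/N median lay between -0.02 and 0.04 with other scalings, and turned negative without S445 or S449 (down to -0.04), so that it had no fixed sign. The difference was negative for 32 of 35 members, beside 7984 of all 15487 genes, and called for Hspb1 alone. Members picked after their values were seen included Hspa1a, an inducible Hsp70, with a log2 change of -2.39 in HSALR muscle. Its change of 0.88 in FVB/N muscle was not called (adjusted p = 0.382). Its difference of -3.27 ± 0.80 missed the threshold (adjusted p = 0.0758). Its near-identical copy Hspa1b (difference -3.11, adjusted p = 0.0784) may share its reads. Hspb8, a partner of the autophagy cochaperone Bag3, differed by -0.83 ± 0.19 (adjusted p = 0.0608).

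In the list of denervation-induced and class IIa HDAC pathway genes, 12 of 30 fell and 3 rose in HSALR muscle and 4 fell and 2 rose in FVB/N muscle, with medians of -0.66 and -0.16. The lower members made up 40.0% and 13.3% of the list, beside 13.0% and 4.77% of all genes. The list summed to 2320 to 2510 CPM after vehicle and 1770 to 2030 CPM after AICAR in HSALR mice. In FVB/N mice it summed to 1160 to 1540 and 1410 to 1920 CPM. The list also holds the epithelial genes Krt8, Krt18, Cdh1 and Fgfbp1, of which Cdh1 was called lower in HSALR muscle (-2.05), where the median of the epidermis markers was -9.67. With the epidermis covariate, the HSALR median was -0.40. The FVB/N median turned to 0.04 without S450, and the FVB/N fallers were 1 without S448 and 2 without S449. The difference was called for Mybph and Runx1. Its median over the list was -0.36 and became -0.72 without S460. Collagen and matrix genes had 19 of 35 members lower in HSALR muscle, among them Col1a1 (-0.92) and Col3a1 (-0.79), which build fibrillar collagen, and none higher. The count was 12 without S462 or S463. In FVB/N muscle 3 fell and 3 rose (8.57% each, beside 4.77% and 8.40% of all genes), and the risers included the basement membrane collagen Col4a1 (0.67). No difference was called for this list, with median effects of -0.46 and -0.07. The FVB/N median was 0.16 without S446 and -0.21 without S450. The summed level of the 11 fibroblast and tendon cell markers was 2260 to 2930 CPM after vehicle and 2280 to 2680 CPM after AICAR in HSALR mice, and 2380 to 2910 and 1970 to 2460 CPM in FVB/N mice. Of these markers, 3 were called lower and 1 higher in HSALR and 1 lower in FVB/N muscle, with median effects of -0.11 and -0.21. Without S460 the HSALR median of these markers was -0.21. With another mouse left out it was as high as -0.061, and the FVB/N median as high as -0.0965. Their part in the collagen result was not tested.

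The interferon-inducible genes leaned the other way. Of 37 members, 5 fell in FVB/N muscle, among them Irf9 (-0.47), a transcription factor of the interferon response, and Oasl2 (-1.07), of the oligoadenylate synthetase family, and none in HSALR muscle. The lower members made up 13.5% of the list in FVB/N and 0% in HSALR muscle, beside 4.77% and 13.0% of all genes. The FVB/N count rested on single mice, being 18 without S450, 8 without S452, 2 without S445 or S447 and 1 without S446 or S449. The HSALR median of -0.06 had no fixed sign, being 0.02 without S452 or S454 and -0.23 with the epidermis covariate, and the FVB/N median was -0.59. The difference was positive for 33 of 37 members, beside 7503 of all 15487 genes, and it was called for none. The 6 erythroid markers, genes of red blood cells, had a summed level of 1220 to 3120 CPM after vehicle and 514 to 866 CPM after AICAR in FVB/N mice, without overlap, and 273 to 2830 and 475 to 1040 CPM in HSALR mice. Their median effects were -1.33 in FVB/N (-0.80 without S446) and -0.62 in HSALR muscle with no member called, and their difference was positive for 6 of 6. The HSALR median of these markers was as high as -0.005 with a mouse left out, and -0.98 with the epidermis covariate. Their part in the interferon result was not tested. Cytosolic ribosomal proteins had a negative difference for 77 of 79 members with a small median of -0.14, which lay between -0.17 and -0.12 with other scalings, and no member was called. In the integrated stress response list of 50 genes, the called members Atf3, Impact and Vldlr moved in different ways, and the median difference of the list was -0.01. The CaM kinase list of 26 genes had Camk1d as its only called member, and the NRF2 list of 38 had Srxn1, beside 0.691% of all genes with a called difference. Single members of lists of this size are no result about the lists. Among CaM kinases, Camk2b rose in both genotypes, although its FVB/N rise was lost in 14 of 27 alternatives (adjusted p up to 0.187). Its difference of 0.06 ± 0.11 (adjusted p = 0.84) had no fixed sign, being -0.01 without S448 and also negative with the epidermis covariate, whereas Camk2d fell in HSALR muscle by 0.47 ± 0.10 and its difference of -0.71 ± 0.17 missed the threshold (adjusted p = 0.0647). It was called with DESeq2, with the likelihood ratio test of edgeR and without S460 (adjusted p down to 0.0043).

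**Figure D5:**
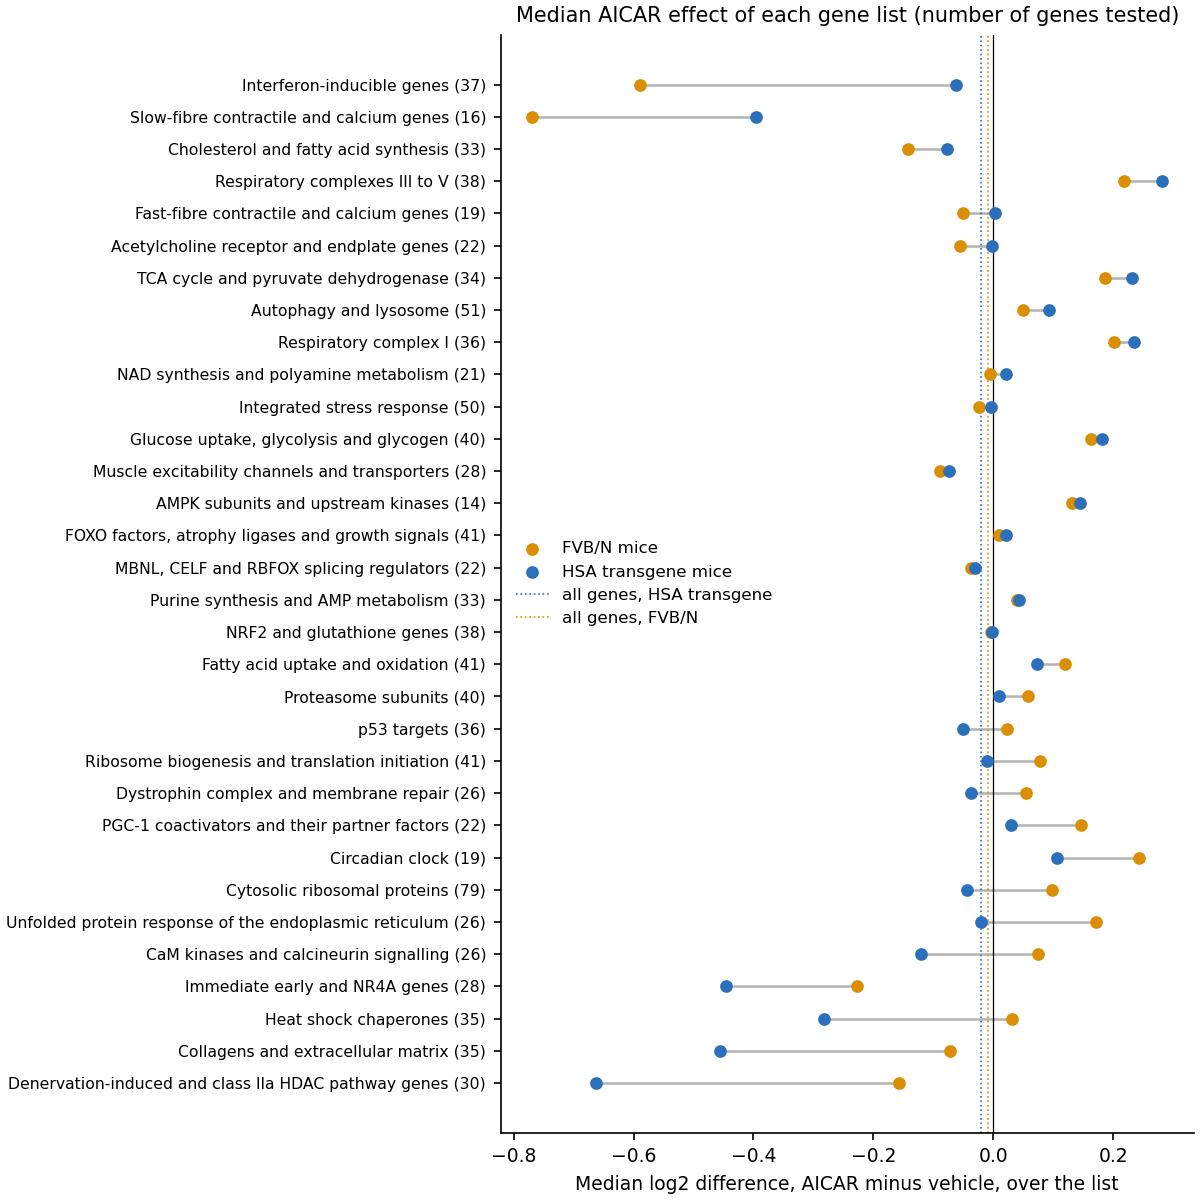
Median log2 AICAR effect over each of 32 gene lists in FVB/N mice (orange) and HSALR mice (blue), sorted by the gap between them, with the number of genes tested in brackets and dotted lines at the medians of all genes tested. The respiratory, TCA and glycolysis lists lie right of 0 in both genotypes, while heat shock, collagen and denervation lists lie further left in HSALR mice and the interferon list further left in FVB/N mice.

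No difference was called for the list of 22 acetylcholine receptor and endplate genes or for that of 28 muscle excitability channels and transporters, beside 0.691% of all genes. At that share, lists of this size would hold few or none, so this is no result about them. Of the endplate genes, 13.6% were called higher and 22.7% lower in HSALR muscle, and 27.3% and 9.09% in FVB/N muscle. The channel list had 21.4% and 14.3%, and 7.14% and 3.57%. Over all genes the shares were 13.7% and 13.0% in HSALR and 8.40% and 4.77% in FVB/N muscle. Chrna1, the alpha subunit of the acetylcholine receptor, differed by 0.17 ± 0.22 (adjusted p = 0.765), and Musk, the kinase that organizes the endplate, by -0.79 ± 0.35 (adjusted p = 0.301). Musk rose by 1.02 in FVB/N muscle, a call lost in 5 of 27 alternatives (adjusted p up to 0.142). Its change of 0.23 in HSALR muscle was not called. Myog, a myogenic factor that drives endplate genes after denervation, fell in both genotypes, by 1.37 ± 0.18 in HSALR and by 1.02 ± 0.23 in FVB/N muscle. Clcn1, the chloride channel whose loss causes myotonia, had 79.7, 80.4, 85.8, 79.6 and 108 CPM after vehicle and 105, 109, 106, 112 and 101 CPM after AICAR in HSALR mice. In FVB/N mice it had 193, 171 and 159 CPM after vehicle and 143, 132 and 181 CPM after AICAR, and the difference was 0.50 ± 0.16 (adjusted p = 0.152), called without S459 (0.0492). Mbnl1, the main splicing factor bound by the repeat RNA, differed by 0.08 ± 0.12 (adjusted p = 0.782), and Acta1, to which transgene reads may have been assigned, by 0.15 ± 0.11 (adjusted p = 0.559).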

How the data were processed

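RNA of gastrocnemius muscle was sequenced from 16 mice with a stranded TruSeq kit. The authors mapped single-end reads to mm10 with STAR 2.5.2a, and the deposited values are counts of reads starting in RefSeq exons, per gene, made with QuasR. The use of strand in counting is not given in the sources used here. Gene names came from RefSeq (GRCm38.p6) by gene ID, which matched 24374 of 24454 genes. Counts were filtered with filterByExpr and scaled by TMM in edgeR 4.0.16 (R 4.3.3). A quasi-likelihood model with 1 mean per group was fitted to all 16 libraries, with an adjusted p (Benjamini-Hochberg, 15487 genes) under 0.05 as threshold. CPM are TMM-normalized. Labels give separate mice. They carry unique replicate numbers and give no pairing, so none was used. Named genes had a called difference, a mean of at least 50 counts and AICAR mice that did not overlap the vehicle mice where the effect was called, up to 4 per direction and class by size, plus up to 3 called members per list and 13 genes of interest. Members, lists and tests were chosen with earlier results of these data known. Alternatives used DESeq2 1.42.0, edgeR's likelihood ratio test, limma 3.58.1 with voom, other scalings and filters, robust dispersion, an epidermis covariate, a stricter threshold and each mouse left out. Scripts were tested on simulated data. Some results are not reported here.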

Additional observations from a re-analysis of the deposited data

Results flagged for a closer look

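One mouse stood apart from the other 4 of its group, by the gap to its nearest neighbour, in 10 of 100 groups of 5 mice examined over the named genes. Chance alone marks about 1 group in 20 where groups are independent and values normally spread. The groups examined here are the same HSALR mice read over many genes, most of them chosen by these values. The count can therefore not be set against that share. In the HSALR AICAR group this was S460 for Epgn at 1.96 CPM, Clca4a at 5.14 CPM, Camk1d at 28.2 CPM and Azin1 at 93.0 CPM, each time as the highest mouse, and S454 for Musk at 85.3 CPM. In the HSALR vehicle group it was S459 for Zfp687 at 21.1 CPM and Clcn1 at 108 CPM, S458 for Hbegf at 32.5 CPM, S452 for Camk2b at 289 CPM and S451 for Myog at 31.5 CPM.

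The AICAR effect differed between the genotypes for 107 genes by the test of the difference itself, among them the 37 named ones. On the log2 scale, the named genes with a more positive effect in HSALR muscle were Trim66 (2.04), Neat1 (0.892), Zfp687 (0.472), BC029722 (0.353), Inmt (1.84), Vldlr (0.896), Vamp1 (0.709), Arfgap2 (0.657), Zc3h6 (1.59), Cysltr1 (1.07), Abcb1a (1.01) and Airn (0.771). Those with a more negative effect there were Ptx3 (-1.89), Gpr176 (-1.58), Panx1 (-1.17), Mdga1 (-0.994), Atf3 (-2.90), Epgn (-2.52), Tnfrsf12a (-2.36), Nmnat2 (-2.31), Clca4a (-4.81), Runx1 (-1.85), Mall (-1.83), Hbegf (-1.75), Tceal7 (-1.33), Telo2 (-1.07), Jag2 (-0.704), Impdh1 (-0.559), Nhp2 (-0.398), Psmd5 (-0.38), Impact (-1.74), Srxn1 (-1.15), Hspb1 (-1.23), Mybph (-1.26), Camk1d (-1.37), Itgb1 (-0.402) and Azin1 (-1.20).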

How the results depend on the processing

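The number of genes with a difference between the genotypes was 107 and moved with the test and the mice. DESeq2 gave 536 genes, of which 41 had opposite effects, 250 an effect called in HSALR mice only, 186 in FVB/N mice only and 43 effects of the same direction. The likelihood ratio test of edgeR gave 322, with 158, 106 and 25 in the last 3 classes. Both sets held all 107 genes. With the epidermis level as covariate, 57 genes were called, 49 of them shared, with 24 in HSALR mice only, 11 in FVB/N mice only and 4 of the same direction, and the AICAR effect in HSALR mice was called for 2354 genes. At an adjusted p of 0.01, 8 genes remained, with 2 opposite, 4 in HSALR mice only, 2 in FVB/N mice only and 0 of the same direction, and effects were called for 2169 genes in HSALR and 829 in FVB/N mice, and genotype differences for 2340 after vehicle and 1598 after AICAR. The other scalings and filters, robust dispersion estimates and limma with voom gave 84 to 127 genes. With one mouse left out, the count ran from 15 (without S448) to 371 (without S460), with 4 to 56 opposite (lowest without S445), 5 to 178 in HSALR mice only, 3 to 111 in FVB/N mice only and 2 to 26 of the same direction. The AICAR effect in FVB/N mice was then called for 1143 to 2186 genes and the genotype difference after AICAR for 2214 to 3790. The difference of Camk2b, not called in any alternative, was -0.011 without S448 and also turned negative with the epidermis covariate, and no other named difference changed sign. No paired analysis was possible because the labels give no pairing, and the groups share no replicate number. The median standard error of a difference was 0.170 on the log2 scale, and the smallest called difference was 0.281.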
